A study of Mus musculus with 32 samples.

Results

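Gene expression was compared between the uteri of female CD-1 mice with a conditional knockout (cKO) of Esr1 and those of their wild-type (WT) counterparts, all of which had received diethylstilbestrol (DES), a synthetic estrogen. The comparison takes every array titled DES Esr1 cKO and every array titled DES Esr1 WT, 8 of the 32 arrays of the study, 4 in each group, and covers all 17145 annotated genes that passed a filter on dim probes. Total RNA of the uterus was taken on postnatal day 5 and hybridised singly to Agilent one-colour arrays labelled with Cy3. The other arrays, also 4 a group, were Vehicle Esr1 cKO and Vehicle Esr1 WT, which had no DES, DES Foxa2 cKO and DES Foxa2 WT, and DES Foxo1 cKO and DES Foxo1 WT. The labels name the deletion as uterine. The sources used here do not give the Cre driver, the dose and route of DES, the litters, or whether animals were pooled. Replicates are called biological in the study's design. The p-values rest on a spread between samples that was estimated within the groups of all 32 arrays, not within the 8 compared arrays alone.

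Esr1 encodes estrogen receptor alpha, a ligand-activated transcription factor that binds DES with high affinity and is found in both the epithelium and the stroma of the uterus. Estrogen given to a neonatal mouse acts on a uterus that is still forming its glands and muscle layers, and exposure to DES in this window is known to alter the uterus for life. In the adult uterus the receptor is known for secretory products of the epithelium such as lactoferrin, for the progesterone receptor and for epithelial growth.

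Levels are log2 intensities from which the 75th percentile of the same array was subtracted, so 0 is a probe at its array's 75th percentile. Probes differ in brightness, so the levels of 2 genes are not compared, and a sum over a list is compared only between arrays. Genes are ordered by their fitted changes. A gene was called where the adjusted p of the fit was under 0.05. A gene whose 4 arrays of a group all lay under the 30th percentile of their array is described as dim there, and its change is then given as a bound. Where 2 or 3 of the 4 arrays lay under that percentile, their number is given, with the change after every value under the percentile was raised to it (the raised change). An adjusted p printed with a bound is that of the fitted change, unless raised values are named.

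Esr1 itself was lower in DES cKO uteri. Its levels were 0.09, 0.46, 0.30 and 0.25 on the DES cKO arrays, against 2.28, 2.12, 2.35 and 2.17 on the DES WT arrays. The groups did not overlap, and the cKO mean of 0.27 ± 0.15 was 25.8% of the WT mean of 2.23 ± 0.10 on the linear scale (SD, n = 4 each). The log2 change was -1.96 ± 0.40 (SE), with an adjusted p of 3.9e-04. All 11 probes of Esr1 were lower, with changes between -2.05 and -1.86, and the sources used here do not say where these probes lie relative to the deleted part of the gene. Without DES the levels were 2.82, 2.51, 2.43 and 2.46 in vehicle cKO uteri, against 3.24, 2.85, 2.65 and 4.43 in vehicle WT uteri, and that difference did not pass the test (-0.74, adjusted p = 0.33). The highest of these values, 4.43, came from Vehicle Esr1 WT replicate 4, 1 of 2 arrays of the study that stood apart in brightness. The difference between the Esr1 change after DES and that under vehicle was -1.22 (adjusted p = 0.12) with these arrays and -1.59 (adjusted p = 2.2e-07) without them, so its call rests on them. Without them the vehicle change was -0.36 (adjusted p = 0.098), and the DES change of -1.96 had an adjusted p of 2.7e-12. RNA of the whole uterus was measured, so fewer cells of a type and less RNA per cell cannot be told apart, here and in every result that follows.

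Of the 17145 genes, 5224 (30.5%) were called between DES cKO and DES WT uteri. Of these, 2843 genes (16.6%) rose and 2381 (13.9%) fell in the cKO, while 11921 were not called. The change was at least 2-fold for 1397 of the genes that rose (8.15%) and for 1251 of those that fell (7.3%). The 4 cKO arrays and the 4 WT arrays did not overlap for 8066 of all genes (47%), of which 4841 were called (28.2% of all genes). The median change over all genes was 0.03. Across all genes, correlations between arrays were 0.9901 to 0.9938 among DES cKO arrays and 0.9884 to 0.9908 among DES WT arrays, against 0.9544 to 0.9683 between them. The 75th percentile intensity was 1302 to 1787 on the DES cKO arrays and 1258 to 1505 on the DES WT arrays. An array of Vehicle Esr1 WT (replicate 4, at 551) and another of DES Foxa2 WT (replicate 1, at 9024) stood apart in brightness. Neither enters the means of the DES Esr1 groups, but both enter the shared estimate of spread, and 8221 genes were called in the DES Esr1 comparison without them. When only its own 8 arrays were fitted, 8411 genes were called.

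**Figure D1:**
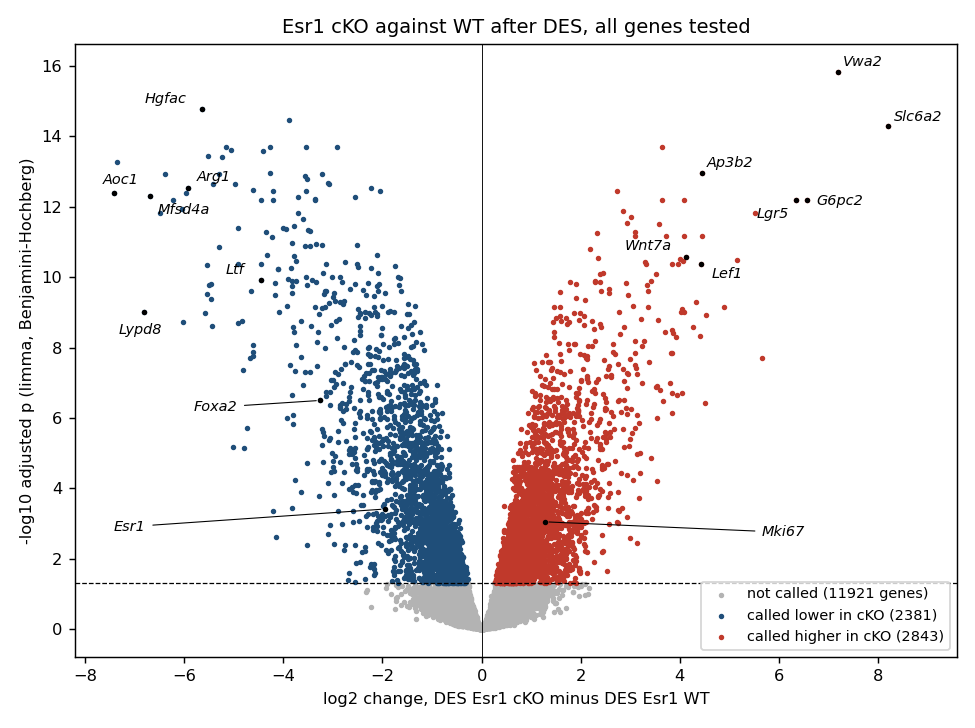
Change of each of the 17145 genes (x axis, log2, DES Esr1 cKO minus DES Esr1 WT) against its significance (y axis, -log10 of the adjusted p). Red points are the 2843 genes called higher in the cKO, blue points the 2381 called lower, grey points the 11921 not called, and black points are genes named in the text. Esr1 lies well inside the cloud of genes that fell, with Aoc1 at the far left and Slc6a2 at the far right.

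Markers of uterine tissue were present. Each of Epcam, Krt8, Krt18, Cdh1, Hoxa10, Hoxa11, Pdgfra, Dcn, Acta2 and Myh11 lay above its array's median on all 8 arrays. The epithelial adhesion genes Epcam and Cdh1 were lower in the cKO, at 2.38 ± 0.26 against 3.11 ± 0.13 in WT for Epcam (log2 change -0.73, adjusted p = 0.016), with a change of -1.26 for Cdh1 (adjusted p = 0.013). The keratin Krt8 also fell (-0.88, adjusted p = 9.7e-04), whereas Krt18 had -0.39 (adjusted p = 0.161). Among the stromal markers Hoxa10 (1.12, adjusted p = 2.1e-04) and Hoxa11 (0.76, adjusted p = 0.012) rose. Pdgfra had a change of 0.56 (adjusted p = 0.145) and Dcn -0.26 (adjusted p = 0.304), so neither was called. Of the muscle markers Myh11 rose (1.13, adjusted p = 0.0087) and Acta2 was not called (0.38, adjusted p = 0.097).

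Among genes with an established name, the largest fitted falls were in Aoc1, Lypd8, Mfsd4a and Scgb3a1, which also had the 4 largest raised changes. Non-overlapping groups were a condition for the 12 genes named in each direction. Aoc1, a secreted amine oxidase that breaks down histamine and putrescine, had levels of -2.81, -1.15, -1.74 and -2.27 in DES cKO uteri, against 5.73, 5.69, 5.22 and 5.06 in DES WT uteri. The fall was 171-fold, to 0.586% of the WT level (log2 change -7.41 ± 0.44, SE; adjusted p = 4.0e-13). Under vehicle Aoc1 was at -5.51, -5.44, -4.03 and -5.88 in cKO uteri and at -5.46, -5.75, -5.67 and -3.40 in WT uteri, so the DES cKO arrays lay above the vehicle arrays of both genotypes. Lypd8, which in the mouse colon keeps flagellated bacteria away from the epithelium, had -7.08, -5.33, -6.71 and -6.14 in DES cKO uteri, against 0.37, 0.16, 1.41 and 0.07 in DES WT uteri, a 113-fold fall (adjusted p = 9.8e-10), or 87.8-fold as a raised change, since 2 of the cKO arrays lay under the percentile. Mfsd4a, a member of the major facilitator family of transporters, had -3.53, -2.96, -2.91 and -3.01 in DES cKO uteri, against 3.79, 3.92, 3.19 and 3.46 in DES WT uteri, a 103-fold fall on its brightest probe (adjusted p = 4.9e-13). Its 3 probes had changes from -6.69 to -0.88, and their mean gave -4.62 (adjusted p = 4.0e-13). Scgb3a1, a small secreted protein of the secretoglobin family, had -5.78, -4.98, -5.14 and -5.01 in DES cKO uteri, against 0.64, 1.06, 1.50 and 1.80 in DES WT uteri, an 89.2-fold fall (adjusted p = 1.5e-12).

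The sequences around the starts of these 4 genes are given because they are the genes with the largest falls for which a promoter was at hand, and because the receptor is known to bind the half-site GGTCA and the palindrome made of GGTCA, any 3 bases and TGACC. Each runs 5′ to 3′ from 250 bases before to 50 bases after the annotated start, from RefSeq on build GRCm38.p6, with GGTCA or its reverse complement TGACC in capitals. They are Aoc1 at chr6:48895005-48895304 on the plus strand, Lypd8 at chr11:58378782-58379081 on the plus strand, Mfsd4a at chr1:132068013-132068312 on the minus strand, and Scgb3a1 at chr11:49663345-49663644 on the plus strand. For Aoc1 and Lypd8, which have more than one annotated start, the most upstream one was used.
Aoc1: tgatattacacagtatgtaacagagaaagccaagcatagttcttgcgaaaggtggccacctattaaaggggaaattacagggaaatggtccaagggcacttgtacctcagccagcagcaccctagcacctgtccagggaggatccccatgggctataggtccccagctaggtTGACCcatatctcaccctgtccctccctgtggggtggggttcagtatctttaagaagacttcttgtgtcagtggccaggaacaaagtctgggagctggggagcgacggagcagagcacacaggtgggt
Lypd8: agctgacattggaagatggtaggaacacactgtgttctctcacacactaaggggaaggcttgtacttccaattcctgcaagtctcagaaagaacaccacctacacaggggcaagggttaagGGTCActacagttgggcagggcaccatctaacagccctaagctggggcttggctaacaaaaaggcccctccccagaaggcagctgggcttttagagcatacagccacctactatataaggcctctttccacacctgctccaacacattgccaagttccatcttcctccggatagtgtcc
Mfsd4a: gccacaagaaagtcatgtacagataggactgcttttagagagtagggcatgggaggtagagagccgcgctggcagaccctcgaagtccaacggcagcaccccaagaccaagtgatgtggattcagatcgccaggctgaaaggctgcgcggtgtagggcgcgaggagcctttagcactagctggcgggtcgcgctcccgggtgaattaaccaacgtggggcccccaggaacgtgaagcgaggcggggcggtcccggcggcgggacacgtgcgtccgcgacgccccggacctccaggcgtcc
Scgb3a1: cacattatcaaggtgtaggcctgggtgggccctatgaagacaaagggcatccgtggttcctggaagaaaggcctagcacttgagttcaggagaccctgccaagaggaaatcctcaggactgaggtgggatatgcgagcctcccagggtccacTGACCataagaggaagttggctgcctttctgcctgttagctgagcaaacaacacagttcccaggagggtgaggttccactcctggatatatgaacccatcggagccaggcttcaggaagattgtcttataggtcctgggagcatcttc
The match begins 78 bases before the start in Aoc1, 129 bases before it in Lypd8 and 98 bases before it in Scgb3a1, and these letters do not occur in the window of Mfsd4a. None of the 4 windows holds the palindrome or the forkhead motif TGTTTAC, which were searched on both strands, and TGTTTAC occurs in 2.76% of the promoters of tested genes. The half-site is short and common. It occurs in 5279 of the 13751 promoters of tested genes that were at hand (38.4%), in 778 of 2220 promoters of genes that rose (35.0%) and in 788 of 1880 promoters of genes that fell (41.9%), while the palindrome occurs in 5 of the 13751 (0.0364%). Half-site and palindrome matches overlap by construction.

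The other 8 of the 12 genes with the largest fitted falls include an immunoglobulin receptor, transporters and enzymes. By raised changes, Khdc1a, Aqp8, Lcn2 and Hsd17b2 were among the 12 in place of Pigr, Otop1, Marchf4 and Cuzd1. Pigr, the receptor that carries IgA across epithelia, was at -8.02, -6.17, -8.33 and -6.86 in DES cKO uteri, against -0.44, -1.04, -0.90 and -1.44 in DES WT uteri, where 3 of the 4 cKO arrays lay under the percentile and 1 just above it. Its raised change was a 37.3-fold fall (log2 -5.22, adjusted p = 6.6e-17). The organic anion transporter Slco4a1 fell 74.6-fold, at -3.76, -3.35, -2.61 and -3.38 in the cKO, against 3.85, 3.27, 2.25 and 2.41 in WT (adjusted p = 6.4e-13). Arg1, the arginase that splits arginine into ornithine and urea, fell 60.8-fold, at -1.86, -0.79, 0.11 and -0.62 in the cKO, against 5.12, 4.72, 5.38 and 5.32 in WT (adjusted p = 3.0e-13). Apobec2, of the cytidine deaminase family, fell 65.7-fold, at -2.49, -0.54, -1.56 and -1.19 in the cKO, against 4.76, 4.62, 4.81 and 4.19 in WT (adjusted p = 1.1e-12). Hgfac, a protease that activates hepatocyte growth factor, fell 49.6-fold, at -2.68, -1.29, -1.58 and -1.02 in the cKO, against 4.20, 4.27, 3.74 and 3.76 in WT (adjusted p = 1.6e-15). The remaining 3 were dim in DES cKO uteri, so that their falls are bounds. Otop1, a proton channel, had -8.68, -9.00, -8.81 and -8.65 in the cKO, against -2.02, -3.73, -2.53 and -2.77 in WT, at least 10.7-fold lower (adjusted p = 1.9e-09). Marchf4, a membrane-bound ubiquitin ligase, had -8.26, -8.32, -8.64 and -8.49 in the cKO, against -2.43, -1.83, -2.74 and -2.88 in WT, at least 13.1-fold lower (adjusted p = 4.2e-13), while its other probe had a change of -0.57. Cuzd1, which carries CUB and zona pellucida-like domains, had -8.80, -7.43, -6.92 and -8.72 in the cKO, against -1.50, -1.76, -2.99 and -3.34 in WT, at least 13.8-fold lower (adjusted p = 1.1e-09).

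The genes with the largest rises were low in DES WT uteri alone of the 4 Esr1 groups. Slc6a2, the noradrenaline transporter, had 0.37, -0.29, 0.19 and -0.45 in DES cKO uteri, against -8.08, -8.65, -8.04 and -8.22 in DES WT uteri, where it was dim, so that it was at least 81.6-fold higher in the cKO (adjusted p = 5.0e-15). Its levels without DES were 0.55, 0.59, 0.90 and 0.81 in vehicle cKO uteri and 0.66, 0.63, 0.70 and 0.92 in vehicle WT uteri. The DES WT arrays were far below all the arrays of the other 3 groups. Vwa2, a protein of basement membranes, had 0.41, -0.34, 0.20 and 0.32 in DES cKO uteri, against -7.60, -6.67, -6.93 and -6.96 in DES WT uteri, also dim, and was at least 93.1-fold higher (adjusted p = 1.5e-16). G6pc2, a glucose-6-phosphatase subunit known from pancreatic islets, had 0.33, -0.23, 0.87 and 0.37 in DES cKO uteri, against -6.47, -6.04, -6.43 and -5.99 in DES WT uteri, a 94.8-fold rise (adjusted p = 6.4e-13), or 93.1-fold as a raised change, with 1 WT array under the percentile. Lgr5, a receptor for R-spondins that strengthens Wnt signalling, had 0.28, -0.52, -0.60 and -0.28 in DES cKO uteri, against -6.30, -6.70, -6.37 and -7.12 in DES WT uteri (log2 change 6.34 ± 0.39, SE; adjusted p = 6.4e-13), and with 2 WT arrays under the percentile its raised change was 6.08. In vehicle uteri Lgr5 had -0.41, 0.51, 0.56 and 0.38 in the cKO and 0.22, 0.52, 0.46 and 1.35 in WT.

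Of the other 8 genes with the largest fitted rises, 4 were dim on the DES WT arrays. By raised changes, Lef1, Kcnip1 and Wnt7a were among the 12 in place of Trhde, Camkv and Nwd2. Trhde, the membrane enzyme that degrades thyrotropin-releasing hormone, had -2.53, -2.65, -2.30 and -3.14 in the cKO, against -8.11, -8.64, -7.53 and -8.43 in WT, at least 13.4-fold higher (adjusted p = 1.5e-12). Npy, neuropeptide Y, had -2.46, -2.46, -1.63 and -2.01 in the cKO, against -6.37, -6.82, -6.73 and -6.73 in WT, at least 19.1-fold higher (adjusted p = 1.2e-09). Camkv, a pseudokinase, was at least 8.55-fold higher (adjusted p = 7.0e-10), and Nwd2 was at least 10.4-fold higher on its brightest probe (adjusted p = 3.8e-07). The other probe of Nwd2 had a log2 change of 1.43. Of the remaining 4, only Ap3b2 lay over the percentile on all 8 arrays. Ap3b2, a subunit of the AP-3 vesicle adaptor, had 1.28, 0.91, 0.47 and 1.56 in the cKO, against -2.90, -3.73, -3.33 and -3.57 in WT (log2 change 4.44 ± 0.24, SE; adjusted p = 1.1e-13). The others lay under it on 3 of the 4 WT arrays each. Their raised changes were 4.55 for Them5, a thioesterase (adjusted p = 1.3e-09), 4.76 for the sulfotransferase Chst9 (adjusted p = 4.2e-16) and 4.08 for Ctnnd2, delta-catenin (adjusted p = 1.8e-13).

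**Figure D2:**
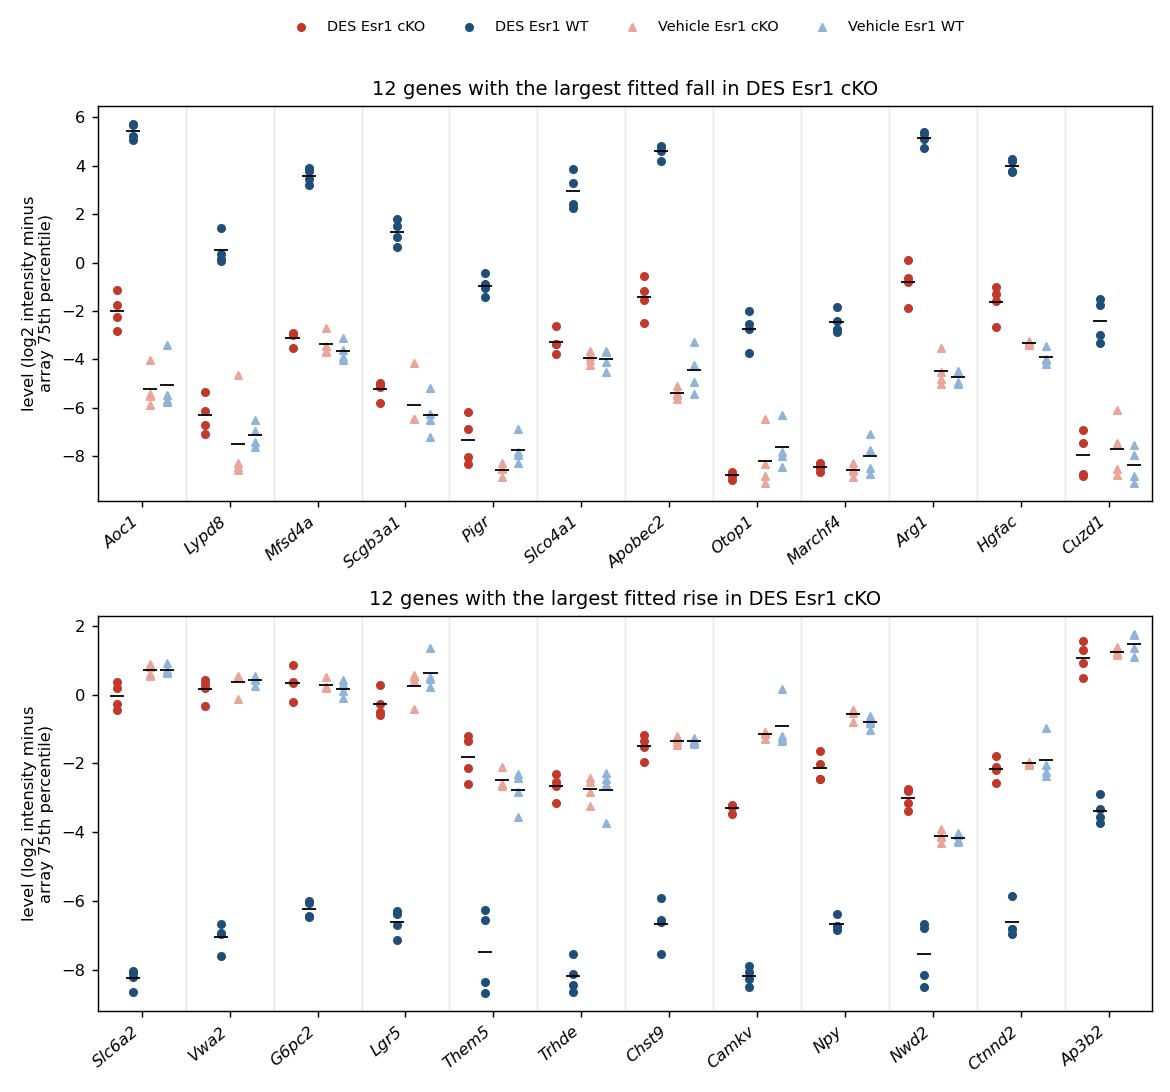
Level on each array (y axis, log2 intensity minus the array's 75th percentile) of the 12 named genes with the largest fitted fall (upper panel) and the 12 with the largest fitted rise (lower panel) in DES Esr1 cKO against DES Esr1 WT uteri. Dark red circles are DES cKO, dark blue circles DES WT, pale triangles the vehicle groups, and black lines the means of 4 arrays. In the lower panel the DES WT circles lie below the other 3 groups for every gene, such as Slc6a2 with DES WT arrays between -8.65 and -8.04.

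Gene groups are given as the number of measured members that passed the test, to be read against the 16.6% of all genes that rose and the 13.9% that fell, with the median change beside the 0.03 of all genes. The lists and their members were chosen with results of these data known, so their counts are descriptions. Where a list is said to have no member that rose or fell, 0 or 1 member did so at an unadjusted p of limma under 0.05. The fit without the 2 arrays that stood apart gave such members in some of these lists. There 3 histone and DNA modifying enzymes, 2 Wnt ligands and 1 gene each of the Hedgehog, Notch and IGF lists fell. In the same fit 1 gene each of the mucin, serpin and interferon lists rose. The replication, mitosis, smooth muscle, antigen and adipocyte lists still had none.

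Among 20 measured steroid receptors and coregulators, 6 rose, 8 fell and 6 were not called (median 0.26). Besides Esr1, the largest fall was in Foxa2, a forkhead factor of uterine glands, at -1.93, -1.00, -0.90 and -1.39 in DES cKO uteri, against 1.49, 2.27, 2.52 and 1.55 in DES WT uteri (log2 change -3.26, adjusted p = 3.2e-07). In the vehicle groups Foxa2 averaged -5.99 in cKO and -6.06 in WT, so DES cKO uteri lay between the vehicle uteri and the DES WT uteri. Gper1, a membrane receptor for estrogen, rose, at -0.48 ± 0.29 in the cKO against -2.67 ± 0.25 in WT (SD, n = 4 each; change 2.19, adjusted p = 2.5e-06). The AP-2 factor Tfap2c rose by 2.11 (adjusted p = 1.1e-04). Pgr, the progesterone receptor, and Greb1, a coregulator of the receptor, were chosen after their values were seen. They fell by 1.40 (adjusted p = 1.2e-07) and 1.66 (adjusted p = 8.8e-05) on the log2 scale.

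Of 29 measured genes known from the adult uterus as estrogen-responsive, 18 fell, 6 rose and 5 were not called (median -1.95). The water channel Aqp8 fell to 2.16% of its WT level, with -0.91, 0.76, 1.53 and -0.12 in the cKO, against 6.54, 5.93, 5.24 and 5.67 in WT (log2 change -5.53, adjusted p = 2.9e-10). Lcn2, which binds bacterial siderophores, had -1.99, -0.53, -0.90 and 0.19 in the cKO, against 5.07, 4.88, 4.30 and 4.35 in WT (-5.45, adjusted p = 4.2e-10). Sprr2f, a small proline-rich protein, had 0.32, 1.90, 1.54 and 1.98 in the cKO, against 7.25, 6.97, 6.65 and 6.52 in WT (-5.41, adjusted p = 2.3e-13). Each of these was separated by several log2 units. Ltf, lactoferrin, an iron-binding defence protein of uterine fluid, fell to 4.59% of WT, with 1.34, 3.67, 2.35 and 3.34 in the cKO, against 7.43, 7.31, 6.92 and 6.81 in WT (-4.44, adjusted p = 1.2e-10). Ltf in vehicle uteri averaged -3.09 in the cKO and -2.82 in WT, well below the DES cKO arrays. The 6 members that rose were Wnt4, Wnt7a, Ccnd1, Myc, Odc1 and Ihh, which are ligands, a cyclin, a transcription factor and the first enzyme of polyamine synthesis. Inhbb, the beta-B subunit of activin and inhibin, was among those that fell (-3.22, adjusted p = 1.2e-13).

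Among secreted products of the epithelium more genes fell than rose in each of 4 lists. Of 23 measured secreted defence proteins, 11 fell and 1 rose (median -0.51), and Chil1, a chitinase-like protein, had -3.53 ± 0.38 in the cKO against 0.58 ± 0.71 in WT (SD, n = 4 each; change -4.11, adjusted p = 5.9e-11). Of 15 measured mucins and enzymes of mucin glycosylation, 11 fell and none rose (median -2.35). Muc5b, a gel-forming mucin, had -4.61, -3.39, -3.99 and -4.16 in the cKO, against 0.91, 2.25, 1.17 and 0.71 in WT (-5.30, adjusted p = 1.4e-11). Agr2, a protein disulfide isomerase needed for mucin folding, had -1.93, -0.76, -1.01 and -1.49 in the cKO, against 3.59, 4.26, 4.02 and 3.52 in WT (-5.15, adjusted p = 2.0e-14). The glycosyltransferase Galnt6 (-4.20, adjusted p = 3.5e-13) and the transmembrane mucin Muc20 (-3.53, adjusted p = 3.6e-13) fell with them. Of 17 complement genes 7 fell and 2 rose (median -0.30), and 5 were called without DES Esr1 cKO replicate 2. Cfb, factor B of the alternative pathway, fell (2.80 ± 0.62 in the cKO, 6.33 ± 0.21 in WT; change -3.53, adjusted p = 1.6e-13), as did the regulators Cd55 (-2.16, adjusted p = 1.0e-07) and Cfi (-1.84, adjusted p = 1.0e-05). The protease Masp1 rose by 3.02 on its brightest probe (adjusted p = 1.9e-12), and its 3 probes had changes from 0.29 to 3.02. Of 13 serpins 6 fell and none rose (median -0.30). Serpina3n was dim in the cKO and at least 2.45-fold lower (adjusted p = 1.5e-04, or 0.022 with raised values). Serpinb11 had a change of -1.97 (adjusted p = 2.7e-04).

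Channels, pumps and transporters changed in both directions. Of 23 measured water, chloride and sodium channels and their regulators, 11 fell and 1 rose (median -0.81). Clca1, a secreted regulator of chloride channels, had 5.00 ± 1.23 in the cKO against 7.67 ± 0.07 in WT (change -2.66, adjusted p = 7.9e-06). The sodium pump regulator Fxyd3 fell (-2.33, adjusted p = 5.2e-08), and the member that rose was the water channel Aqp11 (2.94, adjusted p = 2.9e-12). Of 14 carbonic anhydrases and proton pump genes, 4 fell and 2 rose (median 0.32), with Car12 lower (-2.73, adjusted p = 5.5e-07) and Car4 higher (raised change 2.43, adjusted p = 7.4e-08, with 3 WT arrays under the percentile). Both are membrane-bound carbonic anhydrases. Of 13 genes of calcium handling, 5 fell and 5 rose (median 0.41). Trpv6, an epithelial calcium channel, fell (-4.21, adjusted p = 6.4e-13), as did the secretory pathway calcium pump Atp2c2 (-3.44, adjusted p = 2.4e-09), and the voltage-gated channel Cacna1d rose (2.79, adjusted p = 4.2e-09). Of 22 amino acid transporters and their relatives 6 rose and 4 fell (median 0.17). Slc1a3, a glutamate transporter, rose by 2.29 (adjusted p = 1.4e-10) and the glutamine transporter Slc1a5 fell by 1.61 on the log2 scale (adjusted p = 1.9e-06).

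In metabolism, 20 measured genes of arginine and polyamine metabolism divided into 5 that rose, 4 that fell and 11 not called (median -0.06). Beside Aoc1 and Arg1, the arginine-forming enzyme Ass1 fell (-2.17, adjusted p = 4.2e-08). Nos1, the neuronal nitric oxide synthase, had a change of 3.60 on its brightest probe (adjusted p = 1.6e-07), but only 8 of its 11 probes had a positive change, the lowest probe had -0.81, and the mean of its probes gave 0.68 (adjusted p = 0.091). Of 20 genes of glucose production and uptake 5 rose and 5 fell (median -0.12). Pck1, which feeds glucose synthesis from oxaloacetate, had -3.38, -0.86, -0.98 and -1.47 in the cKO, against 2.49, 3.11, 2.59 and 1.97 in WT (-4.21, adjusted p = 4.6e-04), and the hexokinase Hk2 fell (-2.27, adjusted p = 2.8e-05). Of 24 genes of cystine, glutathione and redox metabolism 9 fell and 2 rose (median -0.32). The glutathione transferase Gsta3 had -2.92 ± 0.47 in the cKO against 2.13 ± 0.40 in WT (change -5.05, adjusted p = 2.4e-14), and the glutathione peroxidase Gpx2 fell too (-2.07, adjusted p = 7.5e-06). Of 18 genes of cholesterol and fatty acid synthesis 9 fell and 3 rose (median -0.42), and 7 were called without DES Esr1 WT replicate 1. Malic enzyme Me1 fell (-1.95, adjusted p = 3.8e-05), while the fatty acid desaturase Scd1 rose (1.94, adjusted p = 6.9e-07). Of 22 genes of protein folding in the endoplasmic reticulum (ER) and the unfolded protein response, 14 fell and 1 rose (median -0.68). The co-chaperone Dnajc3 had 0.77, 0.92, 0.92 and 0.81 in the cKO, against 3.10, 3.03, 2.66 and 2.83 in WT (-2.05, adjusted p = 3.5e-13), and Xbp1, a transcription factor of the response, had -1.13 (adjusted p = 0.0011). Of 17 prostaglandin genes 5 rose and 4 fell (median 0.01), with Ptgfr, the receptor for prostaglandin F, higher (2.99, adjusted p = 2.1e-08) and the prostaglandin transporter Slco2a1 lower (-1.86, adjusted p = 9.5e-09).

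Among genes of Wnt signalling, more rose than fell. Of 17 measured Wnt ligands 6 rose and none fell (median 0.08). Wnt7a, an epithelial ligand needed for patterning of the Müllerian duct in the mouse, had 1.64, 1.33, 1.70 and 1.74 in DES cKO uteri, against -2.04, -1.87, -3.24 and -2.95 in DES WT uteri (log2 change 4.13 ± 0.30, SE; adjusted p = 2.8e-11). In vehicle uteri it averaged 1.33 in the cKO and 1.22 in WT, close to the DES cKO arrays. Wnt11 rose by 3.55 (adjusted p = 1.7e-09) and Wnt6 by 3.14 (adjusted p = 8.6e-07). Of 26 measured genes of the Wnt response and the R-spondin axis 15 rose and 4 fell (median 1.04). Lef1, a transcription factor of the pathway and one of its targets, had -0.10, 0.16, -0.24 and -0.36 in the cKO, against -4.89, -4.33, -4.63 and -4.37 in WT (4.42, adjusted p = 4.1e-11). Notum, an enzyme that inactivates Wnt ligands, rose by 3.67 (adjusted p = 3.2e-07). The secreted inhibitor Wif1, dim in WT, was at least 1.89-fold higher (adjusted p = 6.4e-04, or 0.040 with raised values).

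Among developmental regulators of the reproductive tract, more rose than fell. Of 25 measured Hox genes 10 rose and 1, Hoxb6, fell (median 0.54), and without the 2 arrays that stood apart 14 rose and 3 fell. Hoxa10, which patterns the uterus in the mouse, had 3.25, 3.40, 3.23 and 3.21 in DES cKO uteri, against 2.04, 2.06, 2.21 and 2.30 in DES WT uteri (1.12, adjusted p = 2.1e-04), and Hoxb3 rose by 2.34 (adjusted p = 1.6e-06). Of 24 developmental factors of the Müllerian duct 10 rose and 2, Six4 and Eya2, fell (median 0.54). The homeobox gene Msx1 had 3.49, 2.86, 3.17 and 3.92 in the cKO, against 0.58, 0.58, 0.61 and 0.63 in WT (2.76, adjusted p = 2.9e-08). Hand2, a stromal factor that restrains epithelial growth in the mouse uterus, rose by 2.48 (adjusted p = 2.2e-08), and Amhr2, the receptor for anti-Müllerian hormone, by 2.12 (adjusted p = 2.1e-08). Of 13 Hedgehog genes 8 rose and none fell (median 0.61). The ligand Ihh had -3.96, -3.86, -4.04 and -3.39 in the cKO, against -5.86, -5.89, -6.85 and -6.34 in WT (2.42, adjusted p = 7.6e-06), and the transcription factor Gli3 rose by 0.91 (adjusted p = 7.8e-04). Of 18 Notch genes 10 rose and none fell (median 0.66). The receptor Notch3 had 2.48, 2.64, 2.51 and 2.60 in the cKO, against 0.65, 1.09, 1.46 and 0.98 in WT (1.51, adjusted p = 1.5e-06), and its ligand Jag2 rose by 1.39 (adjusted p = 4.3e-08). Of 21 genes of retinoid metabolism 8 rose and 8 fell (median 0.20). The storage enzyme Lrat fell, at -4.23, -3.76, -2.88 and -4.12 in the cKO, against 0.67, 0.09, 0.35 and 0.34 in WT (-4.11, adjusted p = 5.8e-11), and the retinoic acid-degrading enzyme Cyp26a1 rose, at -1.79, -2.85, -0.99 and -1.31 in the cKO, against -5.62, -5.81, -4.97 and -5.99 in WT (3.87, adjusted p = 3.9e-09).

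**Figure D3:**
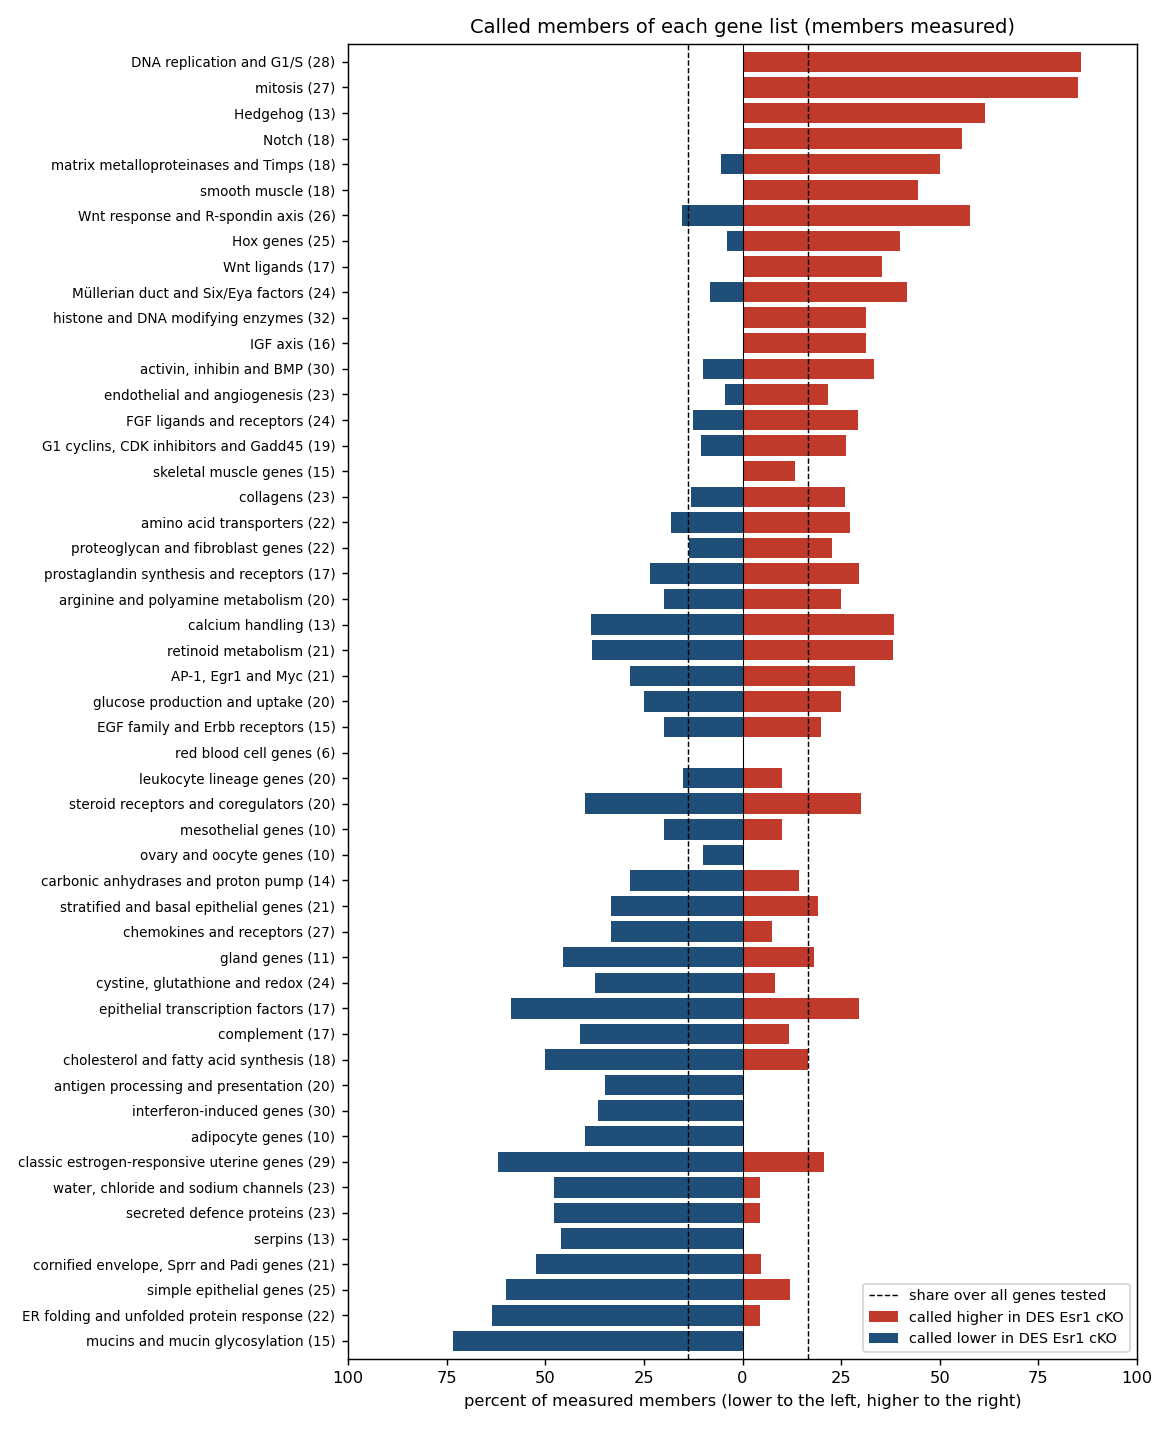
Share of the measured members of each of the 51 gene lists (rows, number of measured members in brackets) called higher (red, to the right) or lower (blue, to the left) in DES Esr1 cKO against DES Esr1 WT uteri, in percent, ordered by the share called higher minus the share called lower. Dashed lines mark the shares over all genes tested, 16.6% higher and 13.9% lower. Lists of DNA replication and mitosis lie at the top and mucins at the bottom.

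Epithelial genes changed in both directions. Of 25 measured genes of simple epithelium 15 fell and 3 rose (median -0.83). The keratins Krt20 (-3.53, adjusted p = 1.9e-05) and Krt7 (-2.20, adjusted p = 4.3e-08) fell. The tight junction genes Cldn6 and Cldn1 rose, with -1.03, -2.00, -1.01 and -0.62 for Cldn6 in the cKO, against -4.99, -5.15, -5.44 and -5.35 in WT (4.06, adjusted p = 3.6e-11), and a raised change of 3.38 for Cldn1 (adjusted p = 8.2e-10), which lay under the percentile on 3 WT arrays. The summed linear level of the whole list was 227 to 301 times the 75th percentile on DES cKO arrays, against 476 to 602 on DES WT arrays. Of 17 epithelial transcription factors 10 fell and 5 rose (median -0.88). Sox9 had -2.14, -2.46, -2.57 and -2.18 in the cKO, against 1.63, 1.44, 1.50 and 1.29 in WT (-3.80, adjusted p = 2.7e-09). Spdef, a factor of secretory cells (-3.79, adjusted p = 3.5e-12), and Klf4 (-2.39, adjusted p = 2.3e-10) fell, and Ovol1 rose (2.86, adjusted p = 2.1e-06). Of 11 gland genes 5 fell and 2 rose (median -0.74), and the chemokine Cxcl15 was among those that fell (-2.21, adjusted p = 4.2e-06). Of 21 measured genes of stratified and basal epithelium 7 fell and 4 rose (median -0.24), and their summed level was 40.3 to 46.7 on DES cKO arrays, against 63.6 to 77.1 on DES WT arrays. Krt4 fell (-3.80, adjusted p = 8.5e-07; raised change -3.64, with 2 cKO arrays under the percentile) and Krt5 fell (-2.12, adjusted p = 9.6e-04). Trp63, the master regulator of stratified epithelium, rose on its brighter probe, at -3.75, -3.42, -3.42 and -3.99 in the cKO, against -6.36, -5.85, -6.62 and -5.97 in WT (2.56, adjusted p = 4.1e-08), while its other probe had a change of -0.50. Of 21 genes of the cornified envelope, small proline-rich proteins and peptidylarginine deiminases 11 fell and 1 rose (median -1.62). Padi2 (-3.95, adjusted p = 4.2e-12) and Padi1 (-3.35, adjusted p = 5.8e-13), which convert arginine in proteins to citrulline, and Sprr2e (-3.60, adjusted p = 2.3e-12) fell.

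Genes of cell division were higher in DES cKO uteri. Of 28 measured genes of DNA replication and entry into S phase 24 rose and none fell (median 1.14, range 0.56 to 1.75). Of 27 mitotic genes 23 rose and none fell (median 1.01, range -0.32 to 1.31). Uhrf1, which maintains DNA methylation at replication, had 2.91, 2.88, 2.41 and 2.68 in DES cKO uteri, against 1.12, 0.29, 1.54 and 0.95 in DES WT uteri (1.75, adjusted p = 3.4e-04). Mki67, the proliferation marker, had 4.54, 4.75, 4.56 and 4.49 in the cKO, against 3.35, 2.77, 3.70 and 3.37 in WT (1.29, adjusted p = 9.0e-04), and averaged 4.76 in vehicle cKO and 4.90 in vehicle WT uteri. For both genes DES WT was the low group of the 4. The helicase subunit Mcm5 rose by 1.33 (adjusted p = 9.0e-06), the licensing factor Cdc6 by 1.45 (adjusted p = 3.3e-05) and the spindle motor Kif11 by 1.29 (adjusted p = 2.7e-05). The 4 mitotic genes not called were Ccnb2, Mad2l1, Cdc20 and Ndc80. The mitotic list varied more among DES WT arrays. Its median SD was 0.203 in the cKO and 0.515 in WT, and the SD was larger in WT for all 27 genes, against medians of 0.175 in the cKO and 0.195 in WT over all genes. The replication list also varied more in WT, with a median SD of 0.252 in the cKO and 0.426 in WT. Its SD was larger in the cKO for 1 of the 28 genes. DES WT replicate 2 was the lowest and replicate 3 the highest. Without DES WT replicate 2, 15 of the 27 mitotic genes were called and the median change was 0.77. Of 19 G1 cyclins, CDK inhibitors and Gadd45 genes 5 rose and 2 fell (median 0.41). Ccnd1, cyclin D1, rose by 1.29 (adjusted p = 3.3e-04) and the inhibitor Cdkn2c by 1.25 (adjusted p = 1.3e-07), while the stress genes Gadd45a (-2.79, adjusted p = 1.4e-06) and Gadd45g (-2.01, adjusted p = 2.8e-09) fell. Without the 2 arrays that stood apart 14 members were called, 10 higher and 4 lower.

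**Figure D4:**
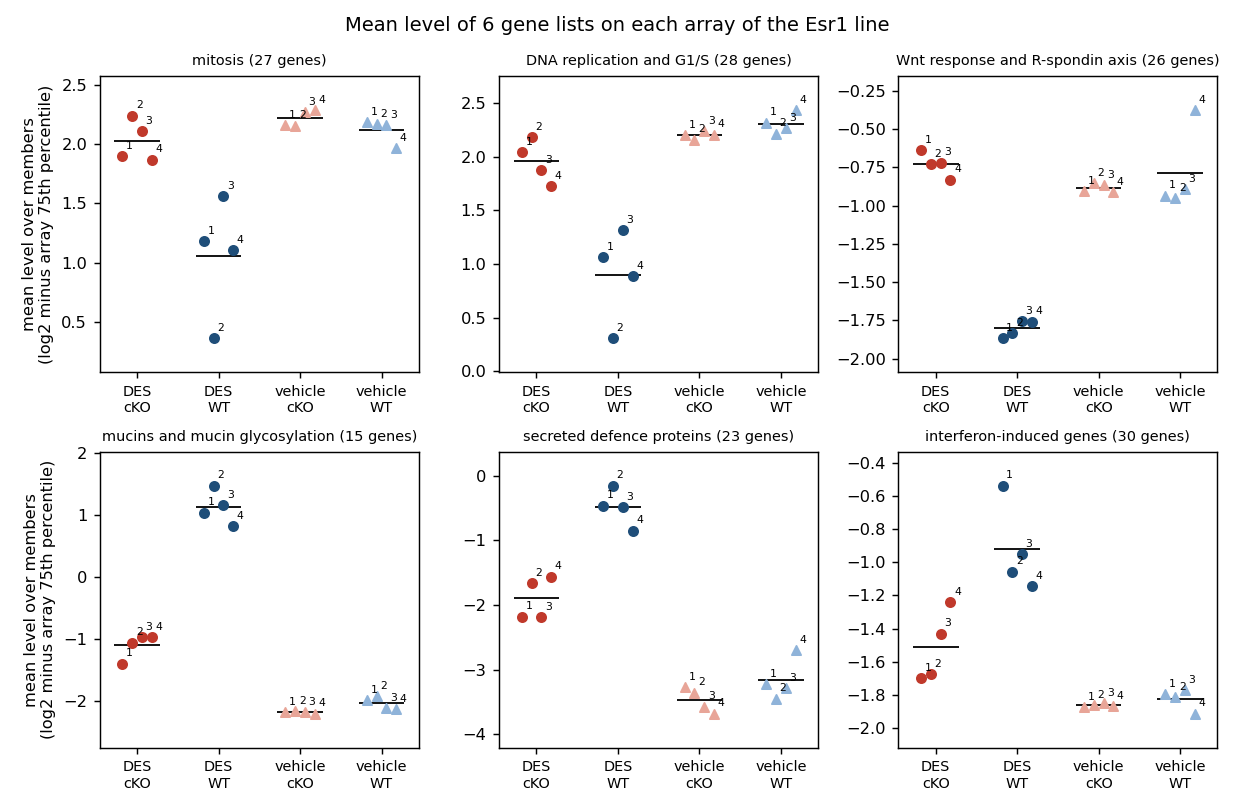
Mean level over the measured members (y axis, log2 intensity minus the array's 75th percentile) of 6 gene lists on each array of the 4 Esr1 groups (x axis), numbered by replicate, with black lines at group means. In the mitosis and DNA replication panels DES WT replicate 2 is lowest and replicate 3 highest of its group, and all 4 lie below the DES cKO arrays. In the mucin and secreted defence panels the DES cKO arrays lie between DES WT and vehicle.

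Growth factor genes changed as follows. Of 21 genes of the AP-1, Egr1 and Myc group 6 rose and 6 fell (median -0.09), and 6 were called without DES Esr1 WT replicate 1. Fos fell (-2.47, adjusted p = 3.6e-08) and Myc rose (1.25, adjusted p = 1.5e-06), both transcription factors of the early response to growth signals. Of 15 genes of the EGF family and its receptors 3 rose and 3 fell (median -0.11), with the ligand Nrg1 lower (-2.17, adjusted p = 3.5e-06) and the ligand Tgfa higher (1.13, adjusted p = 8.1e-05). Of 16 genes of the IGF axis 5 rose and none fell (median 0.18). These included the binding proteins Igfbp4 (1.71, adjusted p = 3.0e-07) and Igfbp5 (1.59, adjusted p = 1.7e-04), and the growth factor Igf2 (0.76, adjusted p = 0.0029). Without the 2 arrays that stood apart 8 members were called, 7 higher and 1 lower. Of 24 FGF ligands, receptors and their inhibitors 7 rose and 3 fell (median 0.37), and the ligand Fgf9 rose by 2.04 (adjusted p = 4.1e-08). Of 30 genes of activin, inhibin and BMP signalling 10 rose and 3 fell (median 0.39). The ligand Bmp8a fell (-4.45, adjusted p = 6.4e-13), and the receptor Bmpr1b (2.60, adjusted p = 1.3e-04) and the ligand Gdf10 (2.58, adjusted p = 2.1e-10) rose.

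In matrix and muscle, of 23 collagens 6 rose and 3 fell (median 0.06), against 8 and 6 when only the 8 arrays compared were fitted. Col26a1 had 4.51 ± 0.38 in the cKO against 1.14 ± 0.60 in WT (SD, n = 4 each; change 3.37, adjusted p = 2.5e-08), and the basement membrane chain Col4a6 rose by 2.18 (adjusted p = 1.6e-11). Of 22 small leucine-rich proteoglycans and fibroblast genes 5 rose and 3 fell (median 0.14), and 14 were called without the 2 arrays that stood apart. Their summed level was 372 to 418 on DES cKO arrays, against 431 to 440 on DES WT arrays. The fibroblast surface protein Thy1 rose (1.96, adjusted p = 1.7e-09) and the proteoglycans Ogn (-1.82, adjusted p = 3.3e-07) and Omd (-2.79, adjusted p = 6.2e-07) fell. Of 18 matrix metalloproteinases and Timps 9 rose and 1 fell (median 0.33). Mmp7, a protease of epithelial cells, was the one that fell, at -1.53, -1.06, -1.33 and -0.81 in the cKO, against 3.93, 3.60, 2.97 and 3.17 in WT (-4.60, adjusted p = 3.2e-13), and Mmp10 rose (raised change 3.91, adjusted p = 6.1e-11, with 2 WT arrays under the percentile). Of 18 smooth muscle genes 8 rose and none fell (median 0.60). The summed level of these genes was 510 to 623 on DES cKO arrays, against 437 to 482 on DES WT arrays, and 5 were called with median scaling or without either DES Esr1 WT replicate 4 or DES Esr1 cKO replicate 2. Myocd, the coactivator that drives smooth muscle genes, had -0.02, 0.60, 0.16 and 0.03 in the cKO, against -1.34, -1.01, -1.38 and -1.22 in WT (1.43, adjusted p = 4.4e-06), and smooth muscle myosin Myh11 rose by 1.13 (adjusted p = 0.0087). Of 23 endothelial genes 5 rose and 1 fell (median 0.28), and 3 were called without either DES Esr1 cKO replicate 1 or replicate 4, against 11 without the 2 arrays that stood apart. The vascular factors Sox17 (1.40, adjusted p = 1.5e-04) and Sox7 (-1.21, adjusted p = 2.4e-06) went in opposite directions. Of 32 histone and DNA modifying enzymes 10 rose and none fell (median 0.35), with Dnmt1, the maintenance DNA methyltransferase, higher by 1.24 (adjusted p = 1.7e-04) and the histone methyltransferase Ezh2 by 0.96 (adjusted p = 2.6e-05). Of the 32, 6 were called without either DES Esr1 WT replicate 1 or DES Esr1 cKO replicate 1. Without the 2 arrays that stood apart 18 were called, 15 higher and 3 lower.

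Among immune genes, more fell than rose. Of 30 measured interferon-induced genes 11 fell and none rose (median -0.52), with the antiviral GTPase Mx1 at -6.64, -6.59, -6.04 and -5.69 in the cKO, against -4.20, -4.36, -4.79 and -4.38 in WT (-1.81, adjusted p = 7.0e-06; raised change -1.58, with 2 cKO arrays under the percentile) and Ifit3 also lower (-1.79, adjusted p = 3.9e-05). When only the 8 arrays compared were fitted, 16 of these genes fell and 3 rose, and with array weights 16 fell and 2 rose. Of 20 genes of antigen processing and presentation 7 fell and none rose (median -0.40). H2-DMa, which loads peptides on class II molecules, had -3.38, -3.30, -3.29 and -2.96 in the cKO, against -0.86, -0.77, -1.53 and -1.47 in WT (-2.07, adjusted p = 1.6e-10), and the class I gene H2-D1 fell (-1.43, adjusted p = 2.4e-09). For this list 11 fell and none rose with only the 8 arrays fitted, and 12 fell and 1 rose with array weights. Of 27 chemokines and receptors 9 fell and 2 rose (median -0.28). The epithelial chemokines Cxcl17 (-2.80, adjusted p = 1.0e-07) and Ccl28 (-2.59, adjusted p = 9.0e-06) fell, and the receptor Cxcr4 rose (2.74, adjusted p = 3.4e-07). Of 20 leukocyte lineage genes 3 fell and 2 rose (median -0.19), against 6 and 2 with only the 8 arrays fitted, and their summed level was 8.78 to 11.4 on DES cKO arrays, against 15.1 to 20.3 on DES WT arrays. Of these, Itgam, an integrin subunit of myeloid cells, had -1.79, -2.24, -1.55 and -1.43 in the cKO, against 2.11, 2.17, 2.07 and 1.96 in WT (-3.83, adjusted p = 2.3e-07), and the mast cell protease Mcpt4 rose by 1.41 (adjusted p = 1.5e-04). Ncr1, a marker of natural killer cells, was dim in both groups. The part of these cells in the immune results was not tested.

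Markers of tissues that could be carried along with the uterus were also measured. Of 10 adipocyte genes 4 fell and none rose (median -0.85), including the fatty acid-binding protein Fabp4 (-2.81, adjusted p = 0.0010) and the lipase Lipe (-1.55, adjusted p = 1.0e-06). The 3 probes of Lipe had changes from -1.55 to -0.19. The summed level of the adipocyte genes was 1.19 to 1.72 on DES cKO arrays, against 4.91 to 6.22 on DES WT arrays, and the defining genes Adipoq and Lep were dim in both groups. Of 10 ovary and oocyte genes 1 fell, the germ cell helicase Ddx4, at -1.93, -1.69, -2.28 and -1.63 in the cKO, against 0.62, 1.34, 0.92 and 0.89 in WT (-2.83, adjusted p = 1.2e-06). The summed level of the ovary and oocyte list was 1.25 to 1.85 on DES cKO arrays, against 2.35 to 3.76 on DES WT arrays, with the oocyte factor Nobox dim in both, and 2 members were called with median scaling or without either DES Esr1 WT replicate 1 or 4, and 3 without the 2 arrays that stood apart. Of 15 skeletal muscle genes 2 rose, Casq1 (2.66, adjusted p = 8.1e-09) and Actn3 (0.68, adjusted p = 0.021), with a summed level of 6.37 to 6.74 on DES cKO arrays, against 4.11 to 4.39 on DES WT arrays, and 1 was called without DES Esr1 WT replicate 1 or 3 or DES Esr1 cKO replicate 4, and 4 without the 2 arrays that stood apart. Of 10 mesothelial genes 2 fell and 1 rose, with summed levels of 83.8 to 106 on DES cKO arrays and 104 to 139 on DES WT arrays. None of 6 red blood cell genes was called, while 2 fell without DES Esr1 WT replicate 2, and their summed level was 38.2 to 93.6 on DES cKO arrays and 52.7 to 165 on DES WT arrays. The part of these tissues in the other results was not tested.

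Without DES, fewer genes were called for the same genotype difference. Between vehicle cKO and vehicle WT uteri 1282 genes (7.48%) were called, 460 higher (2.68%) and 822 lower (4.79%). Vehicle Esr1 WT replicate 4, which stood apart in brightness, is part of the vehicle WT mean. Without it and DES Foxa2 WT replicate 1, 1514 genes were called, 1136 of them among the 1282. The vehicle and DES comparisons share no array. They had 108 genes called in the same direction, 9 higher and 99 lower, which is 2.07% of the DES calls and 8.42% of the vehicle calls, and 142 genes called in opposite directions, 95 of them higher and 47 lower after DES. Over all genes, 30.5% were called after DES, 16.6% higher and 13.9% lower. The difference between the genotype changes was itself tested and called for 4687 genes (27.3%), with a positive difference for 2642 (15.4%) and a negative one for 2045 (11.9%). With median scaling 46.1% of these calls were positive, against 56.4% in the values given here. Among the 5224 genes called after DES, the difference was called for 3371 (64.5%). Vehicle calls were higher in 35.9% of cases, against 46.5% with quantile normalization and 24.2% with 16 added before the logarithm.

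The largest fitted negative differences were in Serpina9, Aoc1, Mfsd4a, Scgb3a1, Acsm3 and Lypd8. As raised changes the 6 largest were in Aoc1, Mfsd4a, Lypd8, Scgb3a1, Slco4a1 and Serpina9. Serpina9, a serpin, had -3.21, -2.38, -2.46 and -2.55 in DES cKO uteri, against 2.53, 3.11, 2.59 and 2.11 in DES WT uteri (-5.24, adjusted p = 3.9e-14). Without DES it had -4.82, -4.86, -4.86 and -4.90 in vehicle cKO uteri, against -6.66, -6.90, -6.37 and -7.64 in vehicle WT uteri, where it was dim (adjusted p = 8.5e-06, or 0.0062 with raised values). The cKO was therefore lower than WT after DES and higher than WT without it, and the difference between the changes was at least 6.26 log2 units in size. Acsm3, a medium-chain acyl-CoA synthetase, was likewise lower after DES, at -3.76 in the cKO against 1.22 in WT (-4.98, adjusted p = 2.3e-13). It was higher under vehicle, where it was dim in WT (adjusted p = 4.8e-05, or 0.0039 with raised values). The largest fitted positive differences were in Slc6a2, Vwa2, Lgr5, G6pc2, Trhde and Ugt3a2, and as raised changes in Vwa2, Lgr5, G6pc2, Slc6a2, Chst9 and Ap3b2. The first 5 had rises after DES and no call under vehicle. Ugt3a2, a UDP-glycosyltransferase, averaged -5.95 in the DES cKO and -7.54 in DES WT, where it was dim, so that the DES change was at least 0.44 (adjusted p = 0.0079). This call was lost with raised values (0.48, adjusted p = 0.34), with 16 added before the logarithm (0.61, adjusted p = 0.11) and without DES Esr1 WT replicate 2 (1.20, adjusted p = 0.052). Under vehicle Ugt3a2 was dim in the cKO and lower there than in WT (raised change -3.10, adjusted p = 6.0e-07). Of the gene lists, DNA replication and S phase entry had the difference called for 22 of 28 members, mitosis for 14 of 27, estrogen-responsive genes for 24 of 29, mucins for 10 of 15 and Wnt response genes for 16 of 26. Over all genes the difference was called for 27.3%, and the vehicle change for 7.48%. Under vehicle, limma called 2 of the 29 estrogen-responsive genes, 1 of the 15 mucin genes and 3 of the 26 Wnt response genes. It called 0 of the 28 replication and 0 of the 27 mitotic genes, and 1 and 0 of them had an unadjusted p under 0.05.

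**Figure D5:**
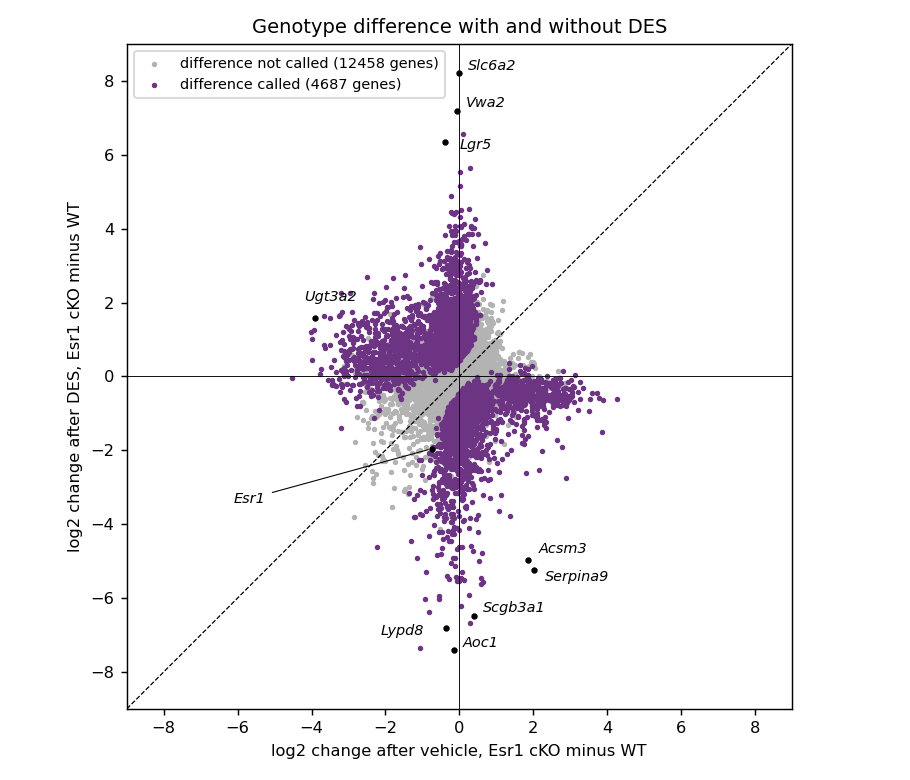
Genotype change of each gene after DES (y axis, log2, DES Esr1 cKO minus DES Esr1 WT) against that without DES (x axis, log2, Vehicle Esr1 cKO minus Vehicle Esr1 WT), with the 4687 genes whose difference was called in purple and the other 12458 in grey. The dashed diagonal is equal change. Genes such as Aoc1, Slc6a2 and Vwa2 lie along the vertical axis, with large changes after DES and little change under vehicle, and Serpina9, Acsm3 and Ugt3a2 lie in the quadrants of opposite direction, as fitted values, with Ugt3a2 dim in DES WT.

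Foxa2 was among the genes that fell in the Esr1 cKO, and DES uteri with a conditional knockout of Foxa2 were measured on other arrays. Between DES Foxa2 cKO and DES Foxa2 WT uteri 379 genes (2.21%) were called. DES Foxa2 WT replicate 1, which stood apart in brightness, is part of the Foxa2 WT mean, and 585 genes were called without it and Vehicle Esr1 WT replicate 4, 295 of them among the 379. Of the 379 genes, 152 were called in the same direction in the DES Esr1 comparison, 47 higher and 105 lower, which is 40.1% of the Foxa2 calls and 2.91% of the Esr1 calls. Over all genes, the DES Esr1 comparison called 30.5%, 16.6% higher and 13.9% lower. A further 85 were called in opposite directions, 66 lower and 19 higher in the Esr1 cKO. The Esr1 and Foxa2 comparisons share no array. The difference between the Esr1 and Foxa2 changes was called for 3162 genes (18.4%), positive for 1576 (9.19%) and negative for 1586 (9.25%), and for 2781 (53.2%) of the genes called in the Esr1 comparison. Without the same 2 arrays it was called for 5797 genes. Genes lower in both knockouts included Agr2 (-5.15 in Esr1 and -3.04 in Foxa2, the second with adjusted p = 2.4e-08), Scgb3a1 (-6.48 and -2.03, adjusted p = 0.0050), Muc5b (-5.30 and -2.17, adjusted p = 9.8e-04), Spdef (-3.79 and -2.27, adjusted p = 2.3e-06) and Gsta3 (-5.05 and -1.95, adjusted p = 3.5e-05). Wnt7a was higher in both (4.13 and 2.39, adjusted p = 2.1e-05). Other genes were not called in the Foxa2 comparison. Ltf had 0.02 in the Foxa2 comparison (adjusted p = 0.98), Lgr5 0.30 (adjusted p = 0.68) and Aoc1 -0.70 (adjusted p = 0.38). For Aoc1 and Lgr5 the difference from the Esr1 change was called. For Ltf this difference was -4.47 in the fit with raised values (adjusted p = 8.7e-08). Cuzd1 was called in opposite directions, averaging -0.70 in Foxa2 cKO against -4.39 in Foxa2 WT uteri (3.69, adjusted p = 4.5e-05), and Ap3b2 fell in the Foxa2 cKO (-1.80, adjusted p = 4.5e-05) where it rose in the Esr1 cKO.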

How the data were processed

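The authors' deposited values are linear intensities of single probes, from 1.87 to 922772. The submitters' processing notes name Agilent Feature Extraction 12, and the sources used here do not give a background correction or a normalization. Log2 of the deposited intensity minus each array's 75th percentile was used. Of 45018 probes, 33653 had 1 gene symbol, 56 several and 11309 none in the platform annotation, and 33517 were matched by gene ID. Probes above their array's 30th percentile on at least 4 of 32 arrays were kept (36657), and the brightest kept probe by mean over all arrays stood for each of the 17145 genes. Probes of a gene could differ in the size of the change, such as those of Fos, whose 11 probes ran from -2.50 to -0.49. Groups came from the sample titles. limma 3.58.1 in R 4.3.3 was fitted with 1 mean for each of 8 groups over 32 arrays (24 residual degrees of freedom), with empirical Bayes moderation and Benjamini-Hochberg adjustment over all genes, so that every adjusted p is limma's, and the code was tested on simulated data. The contrasts were Esr1 cKO minus WT after DES and under vehicle, their difference, and the difference from Foxa2 cKO minus WT. Bounds set the dim group to the 30th percentile of each of its arrays or its own signal, whichever was higher.

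The comparison and the 51 gene lists were chosen with earlier results of these data known. Of 1116 listed entries 69 were not on the array under that name and 34 were below the filter. Named genes are Esr1, 12 per direction with the largest change among calls whose arrays did not overlap and with an established name, up to 4 called members per list with the largest change, and 6 per direction with the largest difference from the vehicle and Foxa2 comparisons; not all of the list members are printed. Pgr, Greb1 and members named only to complete a count were chosen after their values were seen. Normalization, filter, probe choice, fit, array weights, replicate block, left-out arrays and a floor at the 30th percentile, the last chosen after seeing the data, were varied. The number of arrays limits the precision.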

Additional observations from a re-analysis of the deposited data

Results flagged for a closer look

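Among 58 sets of 4 arrays examined for the named genes with the largest changes, 3 held 1 array far from the other 3, and chance gives this in about 1 in 20 groups. Mfsd4a was at -3.53 on DES Esr1 cKO replicate 1, with the other 3 between -3.01 and -2.91. Ctnnd2 was at -5.86 on DES Esr1 WT replicate 3, with the other 3 between -6.95 and -6.81. Mgat4c, of the N-acetylglucosaminyltransferase family, was at -1.64 on DES Esr1 WT replicate 1, with the other 3 between -3.56 and -3.37.

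The genotype change after DES differed from that under vehicle for 4687 genes by the test of the difference. The fitted differences, DES minus vehicle, were -7.27 for Serpina9, -7.27 for Aoc1, -6.97 for Mfsd4a, -6.88 for Scgb3a1, -6.85 for Acsm3 and -6.45 for Lypd8. On the positive side they were 8.22 for Slc6a2, 7.24 for Vwa2, 6.72 for Lgr5, 6.47 for G6pc2, 5.52 for Trhde and 5.49 for Ugt3a2. Where a group was dim, the bounds were -6.26 for Serpina9, -6.13 for Acsm3, -5.21 for Lypd8, 6.36 for Slc6a2, 6.60 for Vwa2, 3.73 for Trhde and 3.54 for Ugt3a2.

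The Esr1 change differed from the Foxa2 change after DES for 3162 genes. The fitted differences, Esr1 minus Foxa2, were -9.26 for Cuzd1, -7.38 for Otop1, -7.10 for Lypd8, -6.85 for Mgat4c, -6.72 for Aoc1 and -6.28 for Slco4a1. On the positive side they were 8.67 for Slc6a2, 6.71 for Vwa2, 6.24 for Ap3b2, 6.04 for Lgr5, 5.99 for Nwd2 and 5.36 for Trhde. Of these, Cuzd1, Otop1, Mgat4c and Nwd2 were dim in a group, with bounds of -7.48, -4.78, -4.52 and 2.69. Slc6a2, Vwa2 and Trhde were dim in both DES Esr1 WT and DES Foxa2 WT uteri, so no bound could be set. Their differences with raised values were 6.30, 6.39 and 3.69. The 2 probes of Mgat4c had Esr1 changes after DES of -5.50 and -0.60.

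Among 7290 probes that passed the filter but carry no single gene symbol, and so enter none of the comparisons above, 1056 (14.5%) were called between DES Esr1 cKO and DES Esr1 WT uteri, 632 higher and 424 lower. Of the genes tested 30.5% were called, but each gene stood for its brightest probe, so these shares are unlike measures.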

How the results depend on the processing

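The change of Esr1 after DES stayed between -2.04 and -1.90 under all alternatives, -2.02 to -1.90 with each array left out, and was called in each. Of 5224 genes called after DES, the count was 8411 with only the compared groups fitted, 8986 with array weights, 8221 without the 2 arrays that stood apart and 2648 at 2-fold or more; leaving out each array gave 4344 to 4849. With median scaling 48.2% of the calls were higher in the cKO, against 54.4%. Vehicle calls (1282) were 330 with the filter at the array median, 2114 with array weights and 815 at an adjusted p under 0.01, and 1006 to 1462 with arrays left out. Calls of the difference between DES and vehicle (4687) were 8377 with array weights, 7266 without the 2 arrays and 2791 at 0.01, and 4059 to 4715 with arrays left out. Calls of the difference from Foxa2 (3162) were 7472 with array weights, 5797 without the 2 arrays and 1931 at 0.01, and 2656 to 4365 with arrays left out. The causes were not tested.

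Replicate numbers did not pair the DES Esr1 samples: deviations of same-numbered DES cKO and DES WT arrays correlated at 0.0157, -0.107, 0.0147 and 0.000149. Same-numbered DES Foxa2 cKO and DES Foxa2 WT arrays correlated at 0.149, 0.46, 0.00222 and 0.06, against -0.252 to 0.0884 for unlike numbers. With the replicate block 5215 genes were called after DES, 1311 under vehicle, 4724 for the difference between them and 3139 for the difference from Foxa2, and the change of Esr1 was -1.96.

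Of 206 called named genes under up to 20 settings each, 4071 of 4111 values kept their direction and call, 40 kept the direction and lost the call, and 0 reversed. The named genes were picked for large changes among calls of the same data, so these counts do not describe all called genes. The lost calls fell on 12 genes, among them Ugt3a2, Nos1 and Actn3. With every value under its array's 30th percentile raised to it, an alternative chosen after seeing the data, 5149 genes were called after DES, 884 under vehicle, 4377 for the difference between them and 3136 for the difference from Foxa2.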
